A study of Mus musculus with 9 samples.

Results

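The 10 genes described here are the core of the machinery that takes a cell out of G1: the D-type cyclins Ccnd1, Ccnd2 and Ccnd3 with their kinases Cdk4 and Cdk6, the E-type cyclins Ccne1 and Ccne2, the transcription factor E2f1, and the CDK inhibitors Cdkn1a (p21) and Cdkn1b (p27). They were taken by name from the 26214 genes of the deposited table, which lists all 10 of them, and all 10 passed the filter on low values (a mean of at least 10 over the 8 libraries compared). RNA was sequenced from cells of C57Bl/6J mice 1 day after an injection into the quadriceps. ASCs (3 libraries) came from the subcutaneous adipose tissue (ScAT) and FAPs (2 libraries), the fibro-adipogenic progenitors of muscle, from the quadriceps, both after NaCl, the non-injured control. Injured FAPs (3 libraries) came from the quadriceps after glycerol, which damages the myofibers (1 dpi), and a single library of CD31+CD45+ cells from glycerol-injected quadriceps was left out of the tests for want of a replicate. The study's methods describe young adult males, depletion of CD31+ and CD45+ cells, selection on Sca-1, and replicates prepared from cells pooled over animals, so the p-values measure the spread between these libraries, which may be partly technical. Tissue and cell type cannot be told apart in the comparison of ASCs with FAPs.

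In G1, D-type cyclins build up in response to growth signals and activate Cdk4 and Cdk6, which begin the phosphorylation of the retinoblastoma (pocket) proteins. E2F factors are then released and switch on the E-type cyclins and the genes of DNA replication, and cyclin E with Cdk2 completes the step into S phase. Cdkn1a and Cdkn1b bind and inhibit cyclin E-Cdk2, while they also help to assemble cyclin D-Cdk4. Muscle FAPs are mostly quiescent at rest and are known to expand after injury.

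Values are reads per gene divided by a size factor for the library. The reads on genes numbered 27349184 to 27481573 in ASCs, 24052508 and 24164447 in FAPs, 26698572 to 27028114 in injured FAPs and 13091077 in the CD31+CD45+ cells, and 3 reads are worth between 2.29 and 4.71 depending on the library. Differences are log2 fold changes on the log2(value + 1) scale from limma, with p-values adjusted over all 13601 genes tested. A gene is called when its adjusted p is under 0.05 and its log2 fold change is above 0.58 in size. The 3 comparisons share libraries, so they are not independent of each other.

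The labelled cell types were checked first. The stromal markers Pdgfra, Ly6a (Sca-1) and Cd34 were present in all 8 libraries compared, with Pdgfra between 10837 and 25268, against 119 in the CD31+CD45+ library. Ly6a and Cd34 did not set that library apart, at 17672 and 17085 in it, where Ly6a was 10823 and 16542 in FAPs and Cd34 10736 to 11933 in injured FAPs. The leukocyte gene Ptprc (CD45) was at 0 in both FAP libraries and in ASC replicates 1 and 3, and reached 55.8 in injured FAP replicate 2. The endothelial gene Pecam1 (CD31) was at 195 and 0 in FAPs, did not exceed 269 in these 8 libraries and was at 45323 in the CD31+CD45+ library. Other endothelial genes went both ways among the groups compared. Cdh5 (1438 and 686 in FAPs) and Kdr (1055 and 684) were highest in FAPs, as were Tie1, Egfl7 and Esam. Tek was highest in ASCs, at 4841 to 6699.9 against 2120 and 1890 in FAPs. Vwf, Emcn and Cldn5 were at 0 in both FAP libraries. Marker sums for other cell types did differ between the groups, and they are given after the results.

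The pair of E-type cyclins differed most between injured FAPs and FAPs. Ccne1 (chr7:38097984-38107534, minus strand, GRCm38) had values of 19.0 and 45.2 in FAPs, 67.2, 71.4 and 64.0 in ASCs and 607, 648 and 619 in injured FAPs. Ccne2 (chr4:11191351-11204779, plus strand) stood at 16.2 and 25.4 in FAPs, 36.9, 58.9 and 32.6 in ASCs and 698, 776 and 798 in injured FAPs. For both genes every injured library was above every ASC library, and every ASC library above both FAP libraries. Ccne1 was 20.6-fold higher in injured FAPs than in FAPs (log2 fold change 4.36, standard error 0.29, limma adjusted p = 1.20e-06). The log2 fold change of Ccne1 was 3.76 without FAP replicate 1 and 4.96 without FAP replicate 2. Ccne2 was 35.6-fold higher (log2 fold change 5.15, standard error 0.28, limma adjusted p = 4.39e-07). Against ASCs the injured FAPs were 9.13-fold higher for Ccne1 and 17.8-fold higher for Ccne2 (log2 fold changes 3.19 and 4.16). The FAP values rest on few reads, 20 and 48 for Ccne1 and 17 and 27 for Ccne2.

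The CD31+CD45+ library had 28.2 for Ccne1, between the FAP libraries, and 26.7 for Ccne2, just above them. Exons of Ccne2 share 609 bases with Ints8 on the opposite strand, 17.4% of the exon length of Ccne2, and the sources used here do not say whether reads were counted by strand. Ints8 itself stayed between 652 and 881 over the 9 libraries. In ASCs, Ccne1 was 2.25-fold and Ccne2 1.99-fold higher than in FAPs (log2 fold changes 1.17 and 0.99, limma adjusted p = 0.00567 and 0.0102). These calls depend on FAP replicate 1, the lower of the pair. Without it the log2 fold changes are 0.57 and 0.68 and neither gene is called, and Ccne2 also loses its call when only the compared groups are fitted.

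**Figure D1:**
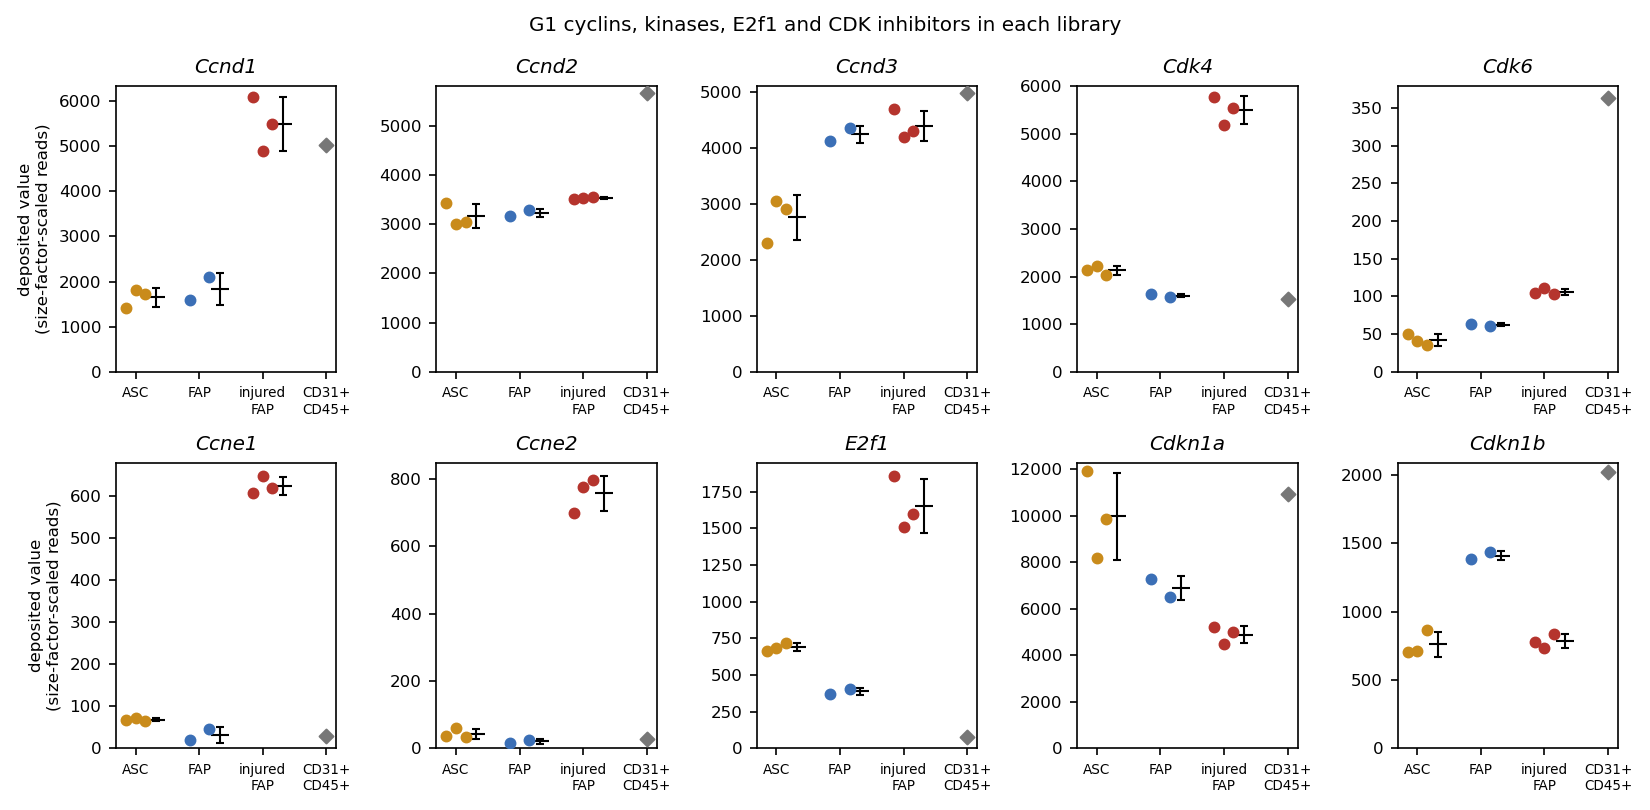
Deposited values (reads divided by a size factor, linear axes from 0) of the 10 genes in each of the 9 libraries; points are libraries and black bars are mean and SD of a group, with no bar for the single CD31+CD45+ library. Ccne1 and Ccne2 lie between 607 and 798 in injured FAPs and below 72 elsewhere, while Ccnd2 stays between 3009 and 3550 in the 8 libraries compared.

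E2f1, the activator E2F whose own gene and targets respond to release from the pocket proteins, lay between these extremes. E2f1 (chr2:154559407-154569892, minus strand) was at 372 and 404 in FAPs, 667, 681 and 721 in ASCs and 1859.6, 1508 and 1595 in injured FAPs. The 3 groups did not overlap, and the CD31+CD45+ library, at 80.0, was below all of them. E2f1 rose 4.24-fold in injured FAPs against FAPs (log2 fold change 2.09, standard error 0.12, limma adjusted p = 5.30e-07) and was 2.39-fold higher than in ASCs (log2 fold change 1.26). ASCs were 1.78-fold above FAPs (log2 fold change 0.83, standard error 0.12, limma adjusted p = 0.00017), and this call held in all 19 alternatives.

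Among the D-type cyclins, which sense growth signals, the members behaved differently. Ccnd1 (chr7:144929931-144939925, minus strand) had 1593 and 2092 in FAPs, 1414, 1818 and 1722 in ASCs and 6100.4, 4887 and 5495 in injured FAPs. FAPs and ASCs overlapped, and the injured libraries were all higher. Ccnd1 rose 2.996-fold against FAPs (log2 fold change 1.58, standard error 0.15, limma adjusted p = 1.06e-05) and 3.33-fold against ASCs (log2 fold change 1.74, standard error 0.14). The difference between ASCs and FAPs was −0.15 (95% interval −0.49 to 0.19) and was not called, nor was it at −0.43 with quantile normalization. The CD31+CD45+ library had 5028, close to the injured FAPs. Ccnd1 shares 1100 bases of exon, 23.4% of its own, with LTO1 on the opposite strand, whose values were 118 to 331.

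Ccnd2 (chr6:127125162-127152193, minus strand) had nearly level values, 3172 and 3284 in FAPs, 3442, 3009 and 3046 in ASCs and 3514, 3534 and 3549.7 in injured FAPs. Its difference between injured FAPs and FAPs was 0.13 on the log2 scale, with a 95% interval from −0.08 to 0.34, and it was called in none of the 3 comparisons by limma. Unadjusted p-values were 0.193 for that comparison, 0.0827 against ASCs and 0.749 for ASCs against FAPs in the limma fit, none of them under 0.05. Quantile normalization moved ASCs against FAPs to −0.44 and injured FAPs against ASCs to 0.45, with adjusted p under 0.05 but still under the threshold on size.

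Ccnd3 (chr17:47505051-47599691, plus strand) was lower in ASCs than in FAPs or injured FAPs. It was at 4136 and 4352 in FAPs, 4701, 4192 and 4309 in injured FAPs and 2311, 3052 and 2917 in ASCs. All ASC libraries were below all FAP and injured FAP libraries, and the last groups overlapped. ASCs were 1.55-fold lower than FAPs (log2 fold change −0.63, standard error 0.13, limma adjusted p = 0.00157), and injured FAPs were 1.604-fold higher than ASCs (log2 fold change 0.68, limma adjusted p = 0.000357). Both calls rest on ASC replicate 1: without it the log2 fold changes are −0.51 and 0.56, under the threshold on size, while quantile normalization gives −1.08 for the first. Between injured FAPs and FAPs the log2 difference of 0.05 (95% interval −0.23 to 0.33) was not called, and its sign turned with the scaling, to −0.12 with quantile normalization and −0.029 with a common 75th percentile.

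Cdk4, the kinase partner of the D-type cyclins, rose with injury. Cdk4 (chr10:127063534-127067920, plus strand) had 1624 and 1576 in FAPs, 2128, 2221 and 2037 in ASCs and 5764, 5189 and 5539.6 in injured FAPs. Injured FAPs were 3.43-fold above FAPs (log2 fold change 1.78, standard error 0.09, limma adjusted p = 3.64e-07) and 2.58-fold above ASCs (log2 fold change 1.37, standard error 0.08). ASCs lay above FAPs in every library, at a log2 fold change of 0.41 that passed on p (limma adjusted p = 0.00307) but not on size, and that was 0.11 with quantile normalization. Cdk4 shares 641 bases of exon, 19.7% of its own, with Tspan31 on the opposite strand, and Tspan31 ranged from 1527 to 2205 over the 9 libraries.

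Cdk6, the alternative partner, was scarce. Cdk6 (chr5:3341485-3531008, plus strand) had 63.7 and 61.2 in FAPs, 50.1, 40.8 and 35.2 in ASCs, 104, 111 and 104 in injured FAPs and 363 in the CD31+CD45+ library. The 3 groups compared did not overlap. Cdk6 was 1.69-fold higher in injured FAPs than in FAPs (log2 fold change 0.76, standard error 0.22, limma adjusted p = 0.0117), a call that ends without FAP replicate 2 (limma adjusted p = 0.0603, the highest of a range from 0.00159 over the alternatives), and 2.52-fold higher than in ASCs (log2 fold change 1.33). The log2 fold change of −0.575 between ASCs and FAPs was at the edge of the threshold, not called here and called in 5 of 19 alternatives, TMM and the common 75th percentile among them, while quantile normalization brought it to −0.014.

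To place these values beside the genes' sequences, RefSeq promoter windows (300 bases, 250 of them before the start site, GRCm38.p6) were searched on both strands for short motif words. Windows were found for 7 of the 10 members, not for Ccnd1, Ccnd2 and Ccne2. The stretch upstream of Cdk4 is printed because it holds the word CACGTG, the E-box bound by Myc-type factors, 4 times, where 7.15% of all 32851 windows hold it at all. The capitals mark CACGTG, and the bases are chr10:127063285-127063533, plus strand, outside annotated exons.
Cdk4: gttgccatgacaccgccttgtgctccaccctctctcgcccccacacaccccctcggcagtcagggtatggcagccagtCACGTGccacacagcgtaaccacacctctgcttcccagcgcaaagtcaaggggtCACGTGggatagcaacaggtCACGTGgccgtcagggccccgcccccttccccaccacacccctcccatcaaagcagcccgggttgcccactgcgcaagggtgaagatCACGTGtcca
Myc itself was at 6473 and 5426 in FAPs, 35722, 25500 and 31148 in ASCs and 12853, 11025 and 9819 in injured FAPs. A word in a window is a description of the sequence and not a bound site, and a link between Myc and Cdk4 was not tested.

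Cdkn1a encodes p21, the CDK inhibitor best known as a target of p53, and was the member with the highest level in ASCs and FAPs. Cdkn1a (chr17:29090976-29100727, plus strand) had 7267 and 6510.3 in FAPs, 11913, 8173 and 9839.6 in ASCs and 5200.5, 4489 and 4981 in injured FAPs. The 3 groups did not overlap, with the injured FAPs lowest. Injured FAPs were 2.02-fold lower than ASCs (log2 fold change −1.01, standard error 0.13, limma adjusted p = 7.39e-05). Against FAPs the log2 fold change was −0.49 (standard error 0.15, limma adjusted p = 0.0139), under the threshold on size, and ASCs were at 0.52 against FAPs (limma adjusted p = 0.012), also under it. Cdkn1a depends on the scaling: with quantile normalization the difference of ASCs from FAPs turns to −0.18, that of injured FAPs from ASCs shrinks to −0.54 and is not called, and that of injured FAPs from FAPs grows to −0.72 and is called. Leaving out ASC replicate 2 or FAP replicate 1 brings ASCs against FAPs over the threshold, to 0.65 and 0.60.

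The window at the upstream Cdkn1a start holds a p53 response element, searched by name as its 20-base consensus with at most 1 mismatch, which 0.0883% of all windows and 0.107% of genes with a window hold. Of the p53 target list, 15 of 22 genes had a window and 1 of them, Ccng1, holds it too. The sequences are shown because these inhibitor and target genes moved differently across the groups. The capitals mark the element, and the bases are chr17:29090729-29090975, plus strand, for Cdkn1a and chr11:40755451-40755492, minus strand, for Ccng1, both outside annotated exons.
Cdkn1a: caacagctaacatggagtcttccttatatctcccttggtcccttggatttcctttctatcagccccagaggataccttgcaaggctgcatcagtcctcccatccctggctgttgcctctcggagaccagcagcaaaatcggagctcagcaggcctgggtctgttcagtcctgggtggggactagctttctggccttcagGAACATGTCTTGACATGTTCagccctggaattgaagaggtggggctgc
Ccng1: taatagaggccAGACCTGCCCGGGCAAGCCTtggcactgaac
Ccng1, a cyclin G induced by p53, was called higher in injured FAPs than in FAPs (log2 fold change 0.92, limma adjusted p = 2.93e-05). It was at 1432 and 1426 in FAPs, 2548 to 2868 in injured FAPs and 1685 to 1979 in ASCs. The log2 fold change of Cdkn1a between the FAP groups was −0.49 and was not called.

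Cdkn1b, the p27 inhibitor that holds quiescent cells in G1, was high in FAPs alone among the 3 groups compared. Cdkn1b (chr6:134920401-134925513, plus strand) had 1387 and 1433 in FAPs, 703, 714 and 866 in ASCs and 778, 735 and 837 in injured FAPs, while the CD31+CD45+ library had 2023. ASCs and injured FAPs overlapped, and every library of theirs was below both FAP libraries. Cdkn1b fell 1.80-fold in injured FAPs against FAPs (log2 fold change −0.85, standard error 0.12, limma adjusted p = 0.000143). ASCs were 1.86-fold lower than FAPs (log2 fold change −0.90, standard error 0.12, limma adjusted p = 0.000123). Both calls held in all 19 alternatives, and injured FAPs against ASCs, at 0.05 (95% interval −0.19 to 0.29), was not called and turned sign without ASC replicate 1 or injured FAP replicate 3.

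**Figure D2:**
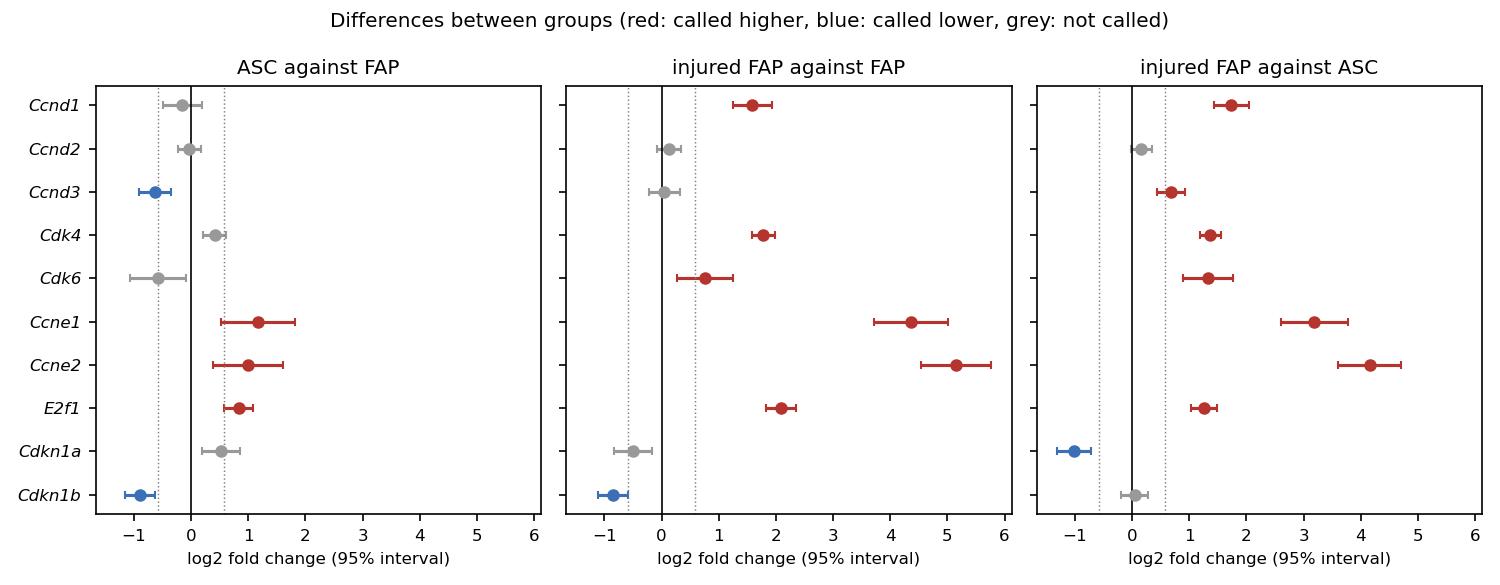
Log2 fold changes of the 10 genes with 95% intervals (limma, log2(value + 1) scale) in the 3 comparisons; dotted lines stand at the size threshold of 0.58. Against FAPs, Ccne2 at 5.15 and Ccne1 at 4.36 lie apart from the other members, and Cdkn1b at −0.85 is the called fall.

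Counted together, 7 of the 10 genes were called between injured FAPs and FAPs, where 52.6% of all genes tested were called. Of these, 6 rose (Ccnd1, Cdk4, Cdk6, Ccne1, Ccne2 and E2f1), against 24.9% of all genes, and 1 fell (Cdkn1b), against 27.7%. Between injured FAPs and ASCs, 8 of 10 were called, against 50.8%, with 7 higher (25% of all genes) and 1 lower (25.8%). Between ASCs and FAPs 5 of 10 were called, near the 47.2% of all genes, so this count is not a result about these members; 3 were higher (23.4% of all genes) and 2 lower (23.8%). The median log2 fold change of the members was 1.17 in injured FAPs against FAPs, where all genes had −0.05, 1.30 against ASCs (all genes 0.02) and 0.19 in ASCs against FAPs (all genes 0.00486). A common 75th percentile moved the median of all genes by −0.20 in ASCs against FAPs and by 0.12 in injured FAPs against ASCs, and in the first it changed the split of all calls from 3183 higher and 3233 lower to 2488 and 4090.

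Levels of different genes were compared per kb of annotated exon, which was decided with the values in view. In FAPs the order was Cdkn1a (1939 per kb), Cdk4 (492), Ccnd3 (484), Ccnd1 (391), Ccnd2 (343), Cdkn1b (309.8), E2f1 (123), Ccne1 (12.1), Ccne2 (5.95) and Cdk6 (4.46). This order depends on the lengths used: with the longest transcript Ccnd3 (1100.1 per kb) stood above Cdk4 (779) in FAPs and Ccnd2 above Ccnd1. Neighbours were not always apart: Cdk4 and Ccnd3 overlap in their libraries (485 to 499.9 and 471 to 496), and so do Ccnd1 and Ccnd2. In ASCs Cdkn1a was at 2808 and Cdk4 at 655, and the 3 D-type cyclins, from 315 to 351, overlapped, but with the longest transcript Ccnd3 (599 to 791) stood above the others. In injured FAPs Cdk4 (1692 per kb, 1597 to 1774) stood above Cdkn1a (1376 per kb, 1263 to 1464), followed by Ccnd1 at 1167, and Ccne1 (235) and Ccne2 (217) stood above Cdkn1b (172). Cdk6 had the lowest level per kb in each of these 3 groups.

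Proportions between the genes show the change of the set within each library. Of the summed D-type cyclins per kb, Ccnd1 made up 54.9% to 58.8% in injured FAPs, 29.5% and 34.5% in FAPs, 32.3% to 36.6% in ASCs and 47.7% in the CD31+CD45+ library. The E-type over D-type ratio was 0.194 to 0.246 in injured FAPs, 0.0103 and 0.0188 in FAPs and 0.0327 to 0.0414 in ASCs. Cdkn1a over the summed D-type cyclins was 1.78 and 1.42 in FAPs, 3.61, 2.18 and 2.71 in ASCs and 0.664, 0.668 and 0.689 in injured FAPs. Cdk4 gave over 99% of Cdk4 plus Cdk6 in all 8 libraries compared, from 99.1% to 99.6%, and 94.8% in the CD31+CD45+ cells. These proportions depend on the gene lengths used: with the longest transcript as length the mean Ccnd1 share is 23.3% in FAPs, 26.6% in ASCs and 46.3% in injured FAPs, and Ccnd3 leads the D-type cyclins in FAPs and ASCs.

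**Figure D3:**
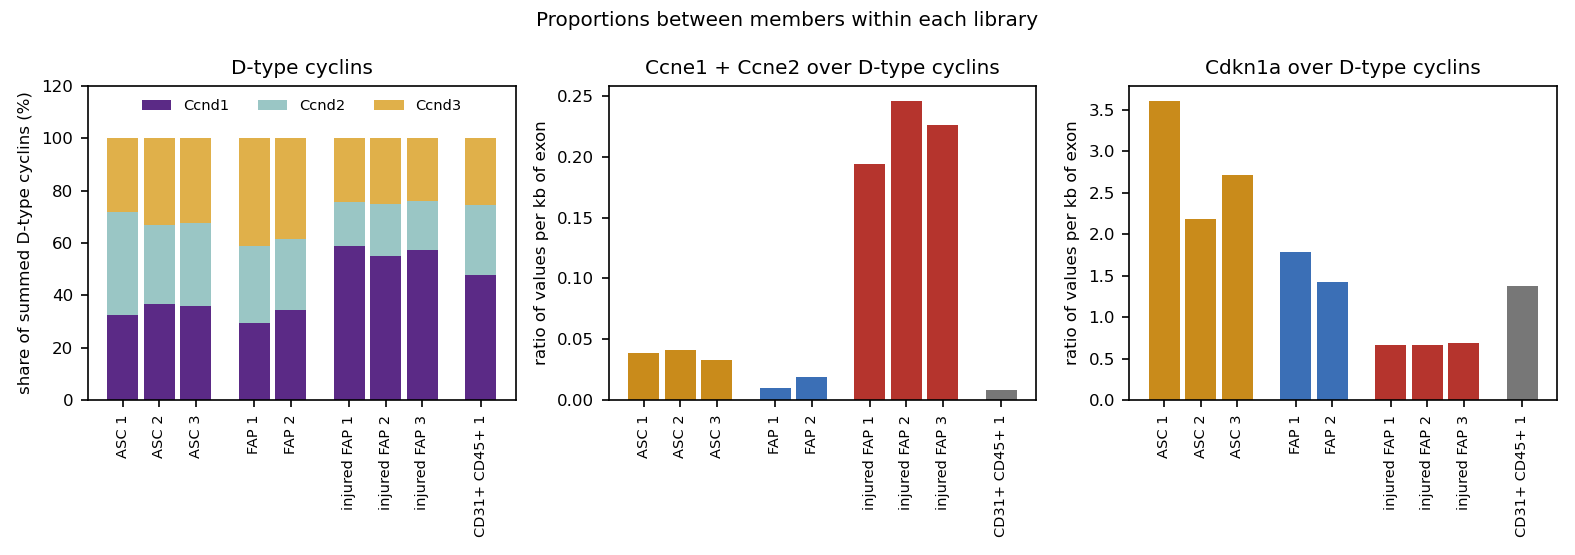
Shares of the 3 D-type cyclins (left, percent of their sum), Ccne1 plus Ccne2 over the D-type cyclins (middle) and Cdkn1a over the D-type cyclins (right), all from values per kb of exon, with a bar per library and axes from 0. The 3 injured FAP libraries have Ccnd1 shares of 54.9% to 58.8% and Cdkn1a ratios of 0.664 to 0.689.

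Other genes of the pathway were taken from lists. Their counts stand beside the shares of all genes called: 24.9% higher and 27.7% lower in injured FAPs against FAPs, 25% and 25.8% in injured FAPs against ASCs, and 23.4% and 23.8% in ASCs against FAPs. Of the other CDK inhibitors, 5 of 6 passed the filter, and Cdkn2a (p16 and Arf) did not, with means of 7.74 in injured FAPs, 0.941 in FAPs and 0 in ASCs. Between injured FAPs and FAPs, 2 rose and 1 fell. Cdkn1c (p57), of the same family as Cdkn1a and Cdkn1b, fell from 1970.2 and 2317 in FAPs to 278, 287 and 276 (log2 fold change −2.93, standard error 0.14, limma adjusted p = 2.99e-07), and ASCs were at 752, 579 and 776. Cdkn2c (p18), an inhibitor of Cdk4 and Cdk6, rose from 139.8 and 179.7 to 799.5, 703 and 786 (log2 fold change 2.26), and Cdkn3, a phosphatase of CDKs, rose by 4.23. Cdkn2d (p19) was lower in ASCs (138) than in FAPs (517) or injured FAPs (637), all means, and Cdkn2b was lower in ASCs than in FAPs too (−1.80). The list counted 0 higher and 3 lower in ASCs against FAPs and 3 higher and 1 lower in injured FAPs against ASCs.

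Of the pocket proteins, E2F and DP factors and MuvB subunits, all 16 were tested, and 8 rose (24.9% of all genes did) and 2 fell (27.7%) in injured FAPs against FAPs, with a median of 1.11. The pocket proteins differed from each other. Rbl1 (p107), itself an E2F target, rose by 2.80, Rbl2 (p130), the pocket protein of quiescence, fell by 0.99 from 1677 and 1573 to 769.7, 901 and 792, and Rb1 was at −0.30 and not called. The repressor E2Fs E2f7 and E2f8 rose by 3.72 and 4.90, and Tfdp1, the dimer partner of the E2Fs, by 2.18, whereas Tfdp2 was at −0.012 and not called. E2f7 was also higher in ASCs than in FAPs (336 against 47.7, log2 fold change 2.89). This list had 5 higher and 2 lower in ASCs against FAPs, and 9 higher and 1 lower in injured FAPs against ASCs.

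Cdk2, the kinase partner of cyclin E, rose from 431 and 432 in FAPs to 1127.5, 1154 and 1150.2 in injured FAPs (log2 fold change 1.41, standard error 0.10, limma adjusted p = 2.19e-06), and ASCs were at 285, 313 and 295. Ccna2 (cyclin A), which follows cyclin E on Cdk2, rose by 5.37. In that list 7 of 10 genes tested rose (24.9% of all genes did) and 0 fell against FAPs, 8 rose and 0 fell against ASCs, and 0 were higher and 1 lower (Cdc25b) in ASCs against FAPs. Ccna1 was at 0 in all 8 libraries compared. Of the ubiquitin ligase genes of G1, 6 of 11 rose (24.9% of all genes did) and 0 fell against FAPs. Among these Skp2 and Cks1b, which mark p27 for degradation, rose by 2.08 and 1.66, and Skp2 was lower in ASCs than in FAPs (−0.85), while Cdkn1b transcripts were low in both injured FAPs and ASCs. The same list had 5 higher and 0 lower in injured FAPs against ASCs, and 2 higher and 1 lower in ASCs against FAPs.

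The listed S-phase and mitotic genes were called higher in injured FAPs against FAPs, as the E-type cyclins were. A link between them was not tested. All 26 S-phase genes of the E2F type rose in injured FAPs against FAPs (median 3.91) and 25 of 26 against ASCs (median 3.66), the exception being Slbp, named after its values were seen. Mcm5, a subunit of the replicative helicase, went from 102 and 109 in FAPs to 4189, 3694 and 3988, and Rrm2, of ribonucleotide reductase, from 49.4 and 92.2 to 2803, 2859.7 and 2979.9. Pcna, the polymerase clamp, was at 833 and 769.6 in FAPs, 2125, 2061 and 1808 in ASCs and 5925, 5221 and 6183 in injured FAPs. Cdc6, which loads the helicase, rose by 3.19. All 15 mitotic genes rose against FAPs (median 4.88) and against ASCs (median 4.69): Mki67 went from 175 and 322 to 9381, 10089.5 and 9774, with ASCs at 150.2, 334 and 418. Cdk1 and Ccnb1 rose by 5.63 and 4.96.

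In ASCs against FAPs, 10 S-phase genes were higher and 0 lower (median 0.43), with 6 to 13 higher and 0 to 3 lower over the alternatives, Pcna among them (1.31) and Mcm5 (0.57) not called. The mitotic list had 2 higher (Kif11 and Ccnf) and 1 lower (Bub1b) there, named after their values were seen, and its count of higher genes ranged from 0 to 7 over the alternatives.

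E2F words were searched as TTTCCCGC, TTTCGCGC, TTTGCCGC and TTTGGCGC on both strands, and 2.26% of all windows, or 2.605% of the 27025 genes with a window, hold at least 1 of them. None of the 7 members with a window does, although the window of E2f1 lies inside annotated exons, and that of Cdk6 starts within the annotated gene with a stretch of 104 of its 300 bases outside exons, so neither lies upstream of the annotated gene. Of the S-phase list 9 of 21 genes with a window hold such a word, and of the pocket protein and E2F list 6 of 12. The mitotic list, which had the highest median, has 1 of 13 (Cdk1), the Cdk2 list 2 of 7, the ubiquitin ligases 1 of 11, the other CDK inhibitors 1 of 5, the Myc family 1 of 6, and the p53 and FoxO lists 0 of 15 and 0 of 10. Another word searched, TTTGAA (CHR), is held by 10 of the 13 mitotic genes, against 20.2% of all genes with a window. In injured FAPs against FAPs the holders of an E2F word in these lists were called higher, other than Lin52, Cdkn2a and Mycn. Lin52 was not called, Cdkn2a was not tested and Mycn, which holds such a word 3 times outside annotated exons, was called lower. Genes of the S-phase and mitotic lists without the word were called higher too, as all 26 and all 15 genes were. A link between the word and these calls was not tested. The stretches printed carry it (capitals) and were picked from genes called higher in injured FAPs: Mcm5 at chr8:75109345-75109378 (plus strand, 2 words that overlap), Cdc6 at chr11:98908002-98908031 (plus), Rbl1 at chr2:157204535-157204563 (minus), Tfdp1 at chr8:13338697-13338726 (plus), E2f7 at chr10:110745230-110745259 (plus) and Cdk1 at chr10:69353025-69353054 (minus).
Mcm5: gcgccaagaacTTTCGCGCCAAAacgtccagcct
Cdc6: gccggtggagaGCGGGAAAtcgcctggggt
Rbl1: aagaaggcgatTTTCGCGCgctttgtcgc
Tfdp1: gggcgccgaagGCGCGAAAaggcgcgcagg
E2f7: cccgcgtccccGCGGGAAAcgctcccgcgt
Cdk1: tttccgctcccTTTCGCGCtctgcgctccc
The window of Ccne1, which rose with them, holds instead the shorter word GGCGGGA, an E2F core found in 11.3% of all windows, at the edge of its first exon. Upstream of it lie 3 copies of the GC box GGGCGG (capitals, either strand), a word of 35.7% of all windows. GGCGGGA and GGGCGG overlap at that exon edge, and the stretch printed, chr7:38107535-38107740 on the minus strand, ends before it.
Ccne1: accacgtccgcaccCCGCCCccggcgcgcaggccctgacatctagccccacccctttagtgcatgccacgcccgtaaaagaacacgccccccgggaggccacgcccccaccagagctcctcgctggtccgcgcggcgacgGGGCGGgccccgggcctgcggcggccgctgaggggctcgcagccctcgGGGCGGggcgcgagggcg

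Of 22 p53 targets, 8 rose and 6 fell in injured FAPs against FAPs (median 0.25), 6 were higher and 7 lower against ASCs (median −0.018), and 5 were higher and 6 lower in ASCs against FAPs (median −0.28). These counts are near the shares of all genes, with 6 to 9 higher over the alternatives in the first comparison, and are not a result about this list. Mdm2, the ligase of p53, was at 701 and 753 in FAPs, 3378, 2981 and 3253 in ASCs and 1084, 1059 and 1102 in injured FAPs, so that ASCs were highest, as for Cdkn1a. Sesn2 was higher in ASCs too (log2 fold change 2.47 against FAPs), and Btg2, an antiproliferative gene, fell by 1.56 in injured FAPs against FAPs. Zmat3 was at 0.33 there and not called. The 5 targets higher in ASCs than in FAPs were Mdm2, Sesn2, Aen, Gdf15 and Pmaip1, the last 3 named after their values were seen. They stand beside 6 targets called lower there, and Cdkn1a itself was not called in that comparison.

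Of the FoxO factors and antiproliferative genes, 8 of 11 fell (27.7% of all genes did) and 2 (Btg1 and Gas2) rose in injured FAPs against FAPs (median −0.97), and 7 fell and 1 (Gas2) rose against ASCs (median −0.87). FoxO factors are known to activate Cdkn1b. The word TGTTTAC, searched for FoxO factors, is held by 1 of the 7 members with a window, Ccnd3, and not by Cdkn1b. A link between FoxO factors and Cdkn1b was not tested. Foxo1 went from 2819 and 2761 in FAPs to 1084, 1042 and 985 (log2 fold change −1.43, limma adjusted p = 1.93e-06), with ASCs at 2071, 1993 and 2376. Foxo3 fell by 0.77, Ccng2, a cyclin G of quiescent cells, by 1.12, and Gas1, a growth arrest gene, by 2.21. In ASCs against FAPs 2 were higher (Ccng2 and Btg1) and 4 lower (Gas1, Gas2, Mxi1 and Txnip), with a median of −0.38. Of 6 Myc family genes tested, 1 rose (Myc, 0.91) and 3 fell (Mycn, Mxd1 and Mxd4) in injured FAPs against FAPs, 0 rose and 3 fell (Myc, Mxd1 and Mxd4) against ASCs, and in ASCs against FAPs 1 was higher (Myc) and 1 lower (Mycn). The genes of these lists other than Foxo1, Foxo3, Ccng2, Gas1 and Myc were named after their values were seen.

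**Figure D4:**
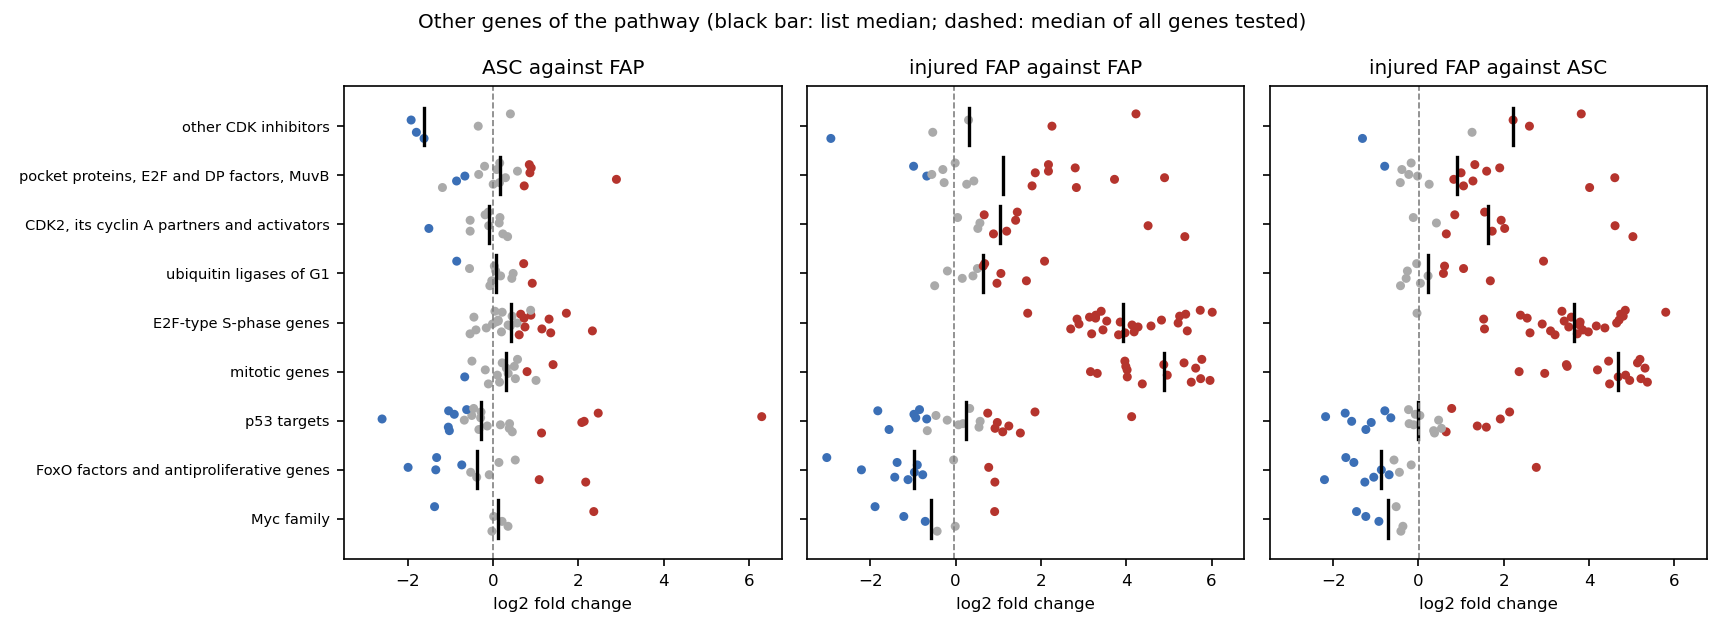
Log2 fold changes of the other pathway genes by list in the 3 comparisons (red called higher, blue called lower, grey not called; black bars are list medians and the dashed line is the median of all 13601 genes tested). The S-phase and mitotic lists have medians of 3.91 and 4.88 for injured FAPs against FAPs, and of 0.43 and 0.31 for ASCs against FAPs.

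Genes with the most similar profiles over the 8 libraries were sought among 10592 genes with a mean of at least 100, by the root mean square difference of centred log2 values. For E2f1 they were Tfdp1 (0.137), Elovl6 (0.139) and Ddx39a (0.154), for Ccnd1 Ccdc34 (0.114), Metrn (0.118) and Gcat (0.124), and for Cdkn1a Gabarapl1 (0.0625), Rnf24 (0.078) and Atp6v1f (0.0827). Tfdp1 had 789 and 803 in FAPs, 1601, 1378 and 1347 in ASCs and 3522, 3621 and 3658 in injured FAPs. Gabarapl1 had 2361 and 2006 in FAPs, 3802, 2529 and 3053 in ASCs and 1494, 1507 and 1598 in injured FAPs. The same genes came first with a mean of at least 10.

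Markers of other cell types moved with the groups, and in bulk RNA fewer cells of a type and less RNA per cell cannot be told apart. The 13 leukocyte markers summed to 292 and 546 in FAPs, 418 to 516 in ASCs and 692, 3061 and 574 in injured FAPs. The sum was 33245 in the CD31+CD45+ library. In injured FAPs against FAPs 7 of the 10 markers tested rose (24.9% of all genes did) and 0 fell (27.7%). Their most abundant gene was Cd68 in both FAP libraries and in injured FAP replicates 1 and 3, and Lyz2 in injured FAP replicate 2, while 9 of the 13, Ptprc and Lyz2 among them, were at 0 in both FAP libraries. Without injured FAP replicate 2 the E-type cyclins, E2f1, Ccnd1, Cdk4, Cdk6 and Cdkn1b kept their calls against FAPs. Replicates 1 and 3 held leukocyte transcripts too (Lyz2 at 142 and 109), so this cannot decide the part of leukocytes. The CD31+CD45+ library had lower Ccne1, Ccne2, E2f1 and Cdk4 than any injured FAP library. Its Cdk6 (363) was higher and its Ccnd1 (5028) within their range. Its endothelial sum (296214) was above its leukocyte sum, so it does not stand for leukocytes. The part of leukocytes in the members' values was not tested.

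The 6 smooth muscle and pericyte markers summed to 21025 and 18227 in FAPs and 8704, 8419 and 8971 in injured FAPs. In ASCs they summed to 3070.5 to 4872. They were led in FAPs by Rgs5 in replicate 1 and Acta2 in replicate 2. Against FAPs, 5 of 6 were called lower in ASCs (23.8% of all genes were) and 5 of 6 in injured FAPs (27.7%). None of them was at 0. The 7 muscle fibre markers summed to 764.5 and 928 in FAPs, 279, 281 and 224 in injured FAPs and 109.9 to 157 in ASCs. Among the 3 groups compared these sums are highest in FAPs, as Cdkn1b is. The endothelial markers went both ways. Cdh5, Kdr, Tie1, Egfl7 and Esam were highest in FAPs too, whereas Tek was highest in ASCs and Vwf, Emcn and Cldn5 were at 0 in both FAP libraries. Cdkn1b overlapped between injured FAPs and ASCs, whereas the smooth muscle and pericyte sums and the muscle fibre sums did not. In the single CD31+CD45+ library these sums were 74138 and 3208, beside an endothelial sum of 296214, and Cdkn1b was at 2023. The part of all these markers in the values of Cdkn1b was not tested.

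The endothelial list (10 markers) summed to 5949 and 3960 in FAPs, 5171 to 6972 in ASCs and 1622, 1796 and 1368 in injured FAPs, led by Tek in ASCs and FAPs and by Cdh5 in injured FAPs, against 296214 in the CD31+CD45+ library. The sum follows Tek (Tie2) in ASCs (4841 to 6699.9), where Pecam1 did not exceed 83.0. The paper's discussion cites FAPs described by their Tie2 level, so Tek need not come from endothelial cells. In ASCs against FAPs, Cdh5, Kdr, Tie1, Egfl7 and Esam were called lower and Tek, Emcn and Cldn5 higher. In injured FAPs against FAPs, Tek, Kdr, Tie1, Egfl7 and Esam were called lower and Emcn and Cldn5 higher. Vwf, Emcn and Cldn5 were at 0 in both FAP libraries. Satellite cell and myoblast markers (7, led by Des) summed to 779.7 and 859.9 in FAPs, 383 to 487 in injured FAPs and 301 to 486 in ASCs, with Pax7 at 0 in ASCs. The adipocyte markers (3) summed to 94.0 to 109 in ASCs and to at most 21.6 elsewhere. The stromal list (8, led by Col1a1 or Col3a1) summed to at least 669560 in each of the 8 libraries. Its sum was lowest in injured FAPs, where Col1a1, Col3a1, Dcn and Cd34 were called lower than in FAPs, Ly6a (0.81) and Pdpn (2.77) called higher, and Pdgfra and Thy1 not called. The part of these differences in the members' values was not tested.

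**Figure D5:**
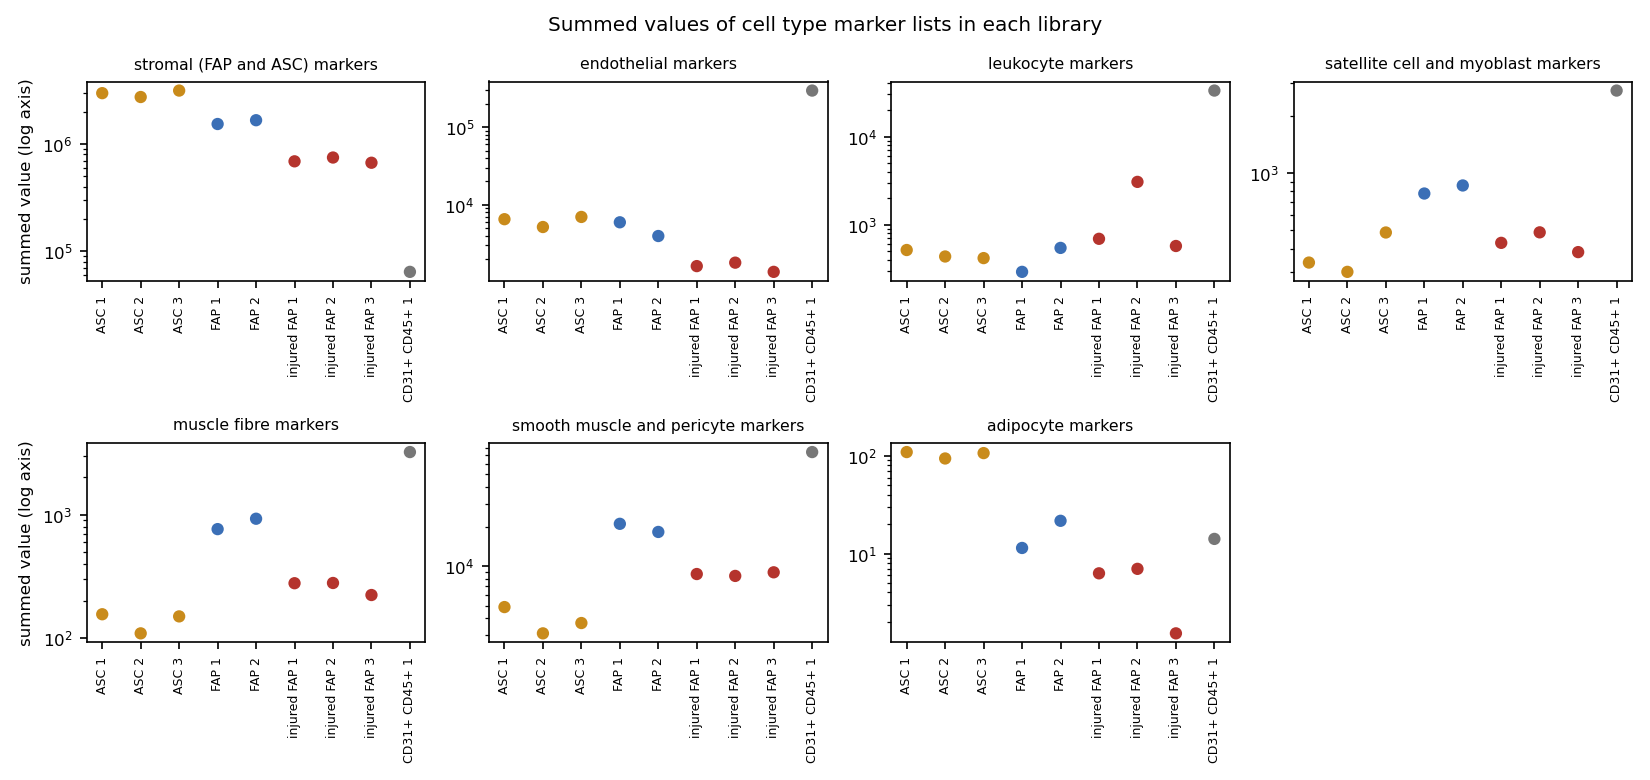
Summed values of 7 marker lists in each of the 9 libraries (log axes, a point per library). Leukocyte markers reach 3061 in injured FAP replicate 2 and 33245 in the CD31+CD45+ library, and smooth muscle and pericyte markers are higher in FAPs (21025 and 18227) than in injured FAPs or ASCs.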

How the data were processed

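RNA of ASCs, FAPs, injured FAPs and CD31+CD45+ cells was sequenced 1 day after injection. Per the study's methods, the authors filtered the reads, checked them with FastQC, aligned them to mm10 (HISAT2), counted genes (featureCounts, Subread) and used DESeq2 for testing. The values deposited are a signal per gene and library, and 100% of them equal a whole read count divided by the library's size factor (0.759 to 0.883 in ASCs, 1.05 and 1.06 in FAPs, 1.27 to 1.31 in injured FAPs), within 0.01 read. How they were scaled, and whether strand or reads with several matches were considered, is not given in the sources used here, so genes with overlapping neighbours are uncertain. The table has 2 empty columns.

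Log2(value + 1) was fitted with limma 3.58.1 (R 4.3.3, prior variance with a trend, 5 residual degrees of freedom) over 8 libraries and 3 groups, for genes with a mean of at least 10, with Benjamini-Hochberg adjustment. This was tested on simulated reads. Alternatives changed the pseudocount (0.5, 8), the filter, the scaling, the groups fitted, a replicate block, the libraries and the tool. EdgeR 4.0.16 and DESeq2 1.42.0 on the recovered reads called 6450 and 6412 genes (ASCs against FAPs), 7303 and 7227 (injured FAPs against FAPs), then 7000 and 6865 (injured FAPs against ASCs). Gene lengths and coordinates are from GENCODE (GRCm38), with 192 of 192 list genes matched, Skp1a under the symbol Skp1. Named genes are the members, all genes of the lists on CDK inhibitors, pocket proteins and E2Fs, Cdk2 and ubiquitin ligases, a fixed few from the other lists, the markers, and the 3 nearest profiles of Ccnd1, Cdkn1a and E2f1; exceptions are marked. The members and lists were chosen with earlier results of these data known, and the proportions, the exon overlaps and the motif words with the values in view.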

Additional observations from a re-analysis of the deposited data

Results flagged for a closer look

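The CD31+CD45+ library entered no comparison. Ccnd1, Ccnd2, Ccnd3, Cdk6 and Cdkn1b were higher in it than in every NaCl library. The share of all genes for which this holds was not counted. Cdk6 was at 363, where the highest NaCl library had 63.7 and the highest injured FAP library 111. Ccnd2 was at 5673, above the 3442 and 3549.7 of those groups. Cdkn1b was at 2023, against at most 1433 after NaCl and 837 in injured FAPs. Ccnd1 was at 5028, above the NaCl libraries (at most 2092) and within the range of the injured FAPs. Ccnd3 was at 4978, against at most 4352 after NaCl and 4701 in injured FAPs. The library has no replicate and 13091077 reads, so these are single values with no test.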

How the results depend on the processing

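The 30 member differences were recomputed under 19 alternatives, and 548 values kept their direction and their side of the threshold, 7 lost and 8 gained a call and 7 changed sign; 17 of the 30 differences kept direction and side throughout. The sign changes concern differences that were not called. For ASCs against FAPs they are Ccnd1 without FAP replicate 2 (0.044, in a range from −0.35 over the libraries left out), Ccnd2 without ASC replicate 2 (0.0045, from −0.092) and Cdkn1a with quantile normalization (−0.18). For injured FAPs against FAPs they are Ccnd3 with quantile normalization (−0.12) and with a common 75th percentile (−0.029), and for injured FAPs against ASCs Cdkn1b when ASC replicate 1 (−0.0065) or injured FAP replicate 3 (−0.0019) is left out, in a range up to 0.14.

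The number of members called ranged from 4 to 6 in ASCs against FAPs, 6 to 8 in injured FAPs against FAPs and 7 to 8 in injured FAPs against ASCs, and the number of genes called from 5341 to 7227, 6112 to 7941 and 5877 to 7696. Leaving out a FAP library leaves that group with 1 library, assumed to vary like the others. Of the counts of the pathway lists, 971 stayed within 1.5 times and 55 did not, most of them counts of a few genes in ASCs against FAPs. Replicate numbers did not pair the libraries: over 7 pairs the deviations of same-numbered libraries correlated between −0.054 and 0.045. With a replicate block 5, 7 and 8 members were called in the 3 comparisons, and 6287, 7046 and 6861 genes. Depth limits Ccne1 and Ccne2 in FAPs, at 17 to 48 reads.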
